A study of Homo sapiens with 8 samples.

Results

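The RNAs described here are the long non-coding RNAs that carry a numbered LINC symbol and were measurably expressed in CFPAC-1, an established cell line from a human pancreatic ductal adenocarcinoma. The members were chosen by 2 conditions, a symbol of LINC followed only by digits and an estimated count, summed over all 8 libraries, of at least 200. That held for 91 of the 1929 LINC genes in a table of 58870 genes, and 1324 LINC genes had no count in any library. The summed count is the measured value that chose them. The difference between the groups was not named in the rule, but the sum covers both groups. A scarce member can therefore reach 200 through the group where it is high. With all 8 libraries at the level of their lower group, LINC02154, LINC02532, LINC02361 and LINC02475 would not reach 200. Each of these is among the members that changed at least 2-fold. The same held for LINC01597 and LINC01426, called higher by less than 2-fold, and for LINC01224 and LINC01268, which were not called. The members nearest to the limit were LINC01224 with 208 counts and LINC01268 with 210, and the nearest genes outside it were LINC00957 with 171 and LINC01836 with 166.

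All cells were CFPAC-1 grown for 72 hours in IMDM with 10% fetal bovine serum and 1% penicillin-streptomycin, with no drug given. The 4 control samples carried an empty vector and the other 4 carried an ADRA2A transgene, which encodes the alpha-2A adrenergic receptor. Poly(A) selection, strand, the vector's promoter and clonality were not given in the sources used here, and neither was whether the 4 samples of a group were separate cultures, so the p-values measure only the spread between these samples. Library totals lay between 14427040 and 17528910 estimated counts. ADRA2A had 0 counts in all 4 empty-vector libraries and 112, 142, 154 and 172 counts in ADRA2A replicates 1 to 4. Of 8 markers of ductal epithelium 7 passed the filter on low counts, and their summed level was 11500 to 12100 CPM (the count scaled to the library's size) in the empty-vector libraries and 11300 to 12400 CPM in the ADRA2A libraries. The 4 endocrine markers INS, GCG, SST and CHGA were at 0 in every library, and the 5 acinar markers summed to at most 0.271 CPM. Fibroblast markers summed to 1.83 to 2.21 CPM in the empty-vector and 0.969 to 1.66 CPM in the ADRA2A libraries, and endothelial markers to 0.82 to 1.49 and 2.15 to 2.85 CPM, so both lists were low and did not overlap between the groups, and their part in the results was not tested. The leukocyte list, which held 108 to 119 CPM in the ADRA2A libraries and 88.2 to 95.1 CPM in the others, consisted almost wholly of the lysosomal gene CD68 at a mean of 103 CPM, while CD3E was at 0.

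Long intergenic non-coding RNAs are transcribed by RNA polymerase II and usually capped and spliced, but hold no known protein-coding frame. LINC symbols are given by a naming committee as running numbers to genes with no better known function or position, so the class has no shared pathway. Some of these RNAs act on the chromatin or the neighbouring gene at their own site of transcription, some act elsewhere in the cell, and for many only the act of transcription, or nothing, is known. Several are used as markers of tumour type because they are expressed in few tissues.

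The sequences that introduce the members are the promoters of those with the largest changes for which RefSeq (GRCh38.p14) gave a start site. RefSeq held promoters for 60 of the 91 members, and the 3 with the largest rise and the 3 with the largest fall among those eligible are shown, from 250 bases before to 50 bases after the start, 5′ to 3′. Capitals mark matches, on either strand, to 9 short motifs searched for.
LINC02381 (chr12:54125821-54126120, plus strand): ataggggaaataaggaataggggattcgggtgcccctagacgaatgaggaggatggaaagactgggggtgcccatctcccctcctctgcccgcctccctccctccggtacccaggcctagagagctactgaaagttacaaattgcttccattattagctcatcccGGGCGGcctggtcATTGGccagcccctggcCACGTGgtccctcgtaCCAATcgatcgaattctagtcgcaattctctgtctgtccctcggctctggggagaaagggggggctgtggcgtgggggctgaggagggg
LINC00842 (chr10:46398112-46398411, plus strand): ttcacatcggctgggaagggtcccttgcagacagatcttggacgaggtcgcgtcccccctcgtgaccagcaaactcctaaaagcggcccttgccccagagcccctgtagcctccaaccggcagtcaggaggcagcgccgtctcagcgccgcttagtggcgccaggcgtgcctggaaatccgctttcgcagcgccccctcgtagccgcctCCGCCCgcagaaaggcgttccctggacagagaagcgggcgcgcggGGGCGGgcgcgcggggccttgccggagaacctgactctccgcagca
LINC02361 (chr12:132189646-132189945, minus strand): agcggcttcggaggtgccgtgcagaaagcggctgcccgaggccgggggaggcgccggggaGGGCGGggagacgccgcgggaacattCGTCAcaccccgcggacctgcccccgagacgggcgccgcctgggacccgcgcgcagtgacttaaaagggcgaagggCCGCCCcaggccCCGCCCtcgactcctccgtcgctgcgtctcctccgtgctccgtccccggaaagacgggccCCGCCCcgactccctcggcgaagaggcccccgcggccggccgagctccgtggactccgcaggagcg
LINC00973 (chr3:98980805-98981104, plus strand): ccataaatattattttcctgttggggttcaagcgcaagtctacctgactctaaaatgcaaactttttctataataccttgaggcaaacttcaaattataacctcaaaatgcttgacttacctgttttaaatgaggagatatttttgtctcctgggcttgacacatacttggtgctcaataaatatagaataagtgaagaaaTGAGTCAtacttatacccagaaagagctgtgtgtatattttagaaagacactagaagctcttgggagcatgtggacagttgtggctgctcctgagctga
LINC02475 (chr4:44016611-44016910, plus strand): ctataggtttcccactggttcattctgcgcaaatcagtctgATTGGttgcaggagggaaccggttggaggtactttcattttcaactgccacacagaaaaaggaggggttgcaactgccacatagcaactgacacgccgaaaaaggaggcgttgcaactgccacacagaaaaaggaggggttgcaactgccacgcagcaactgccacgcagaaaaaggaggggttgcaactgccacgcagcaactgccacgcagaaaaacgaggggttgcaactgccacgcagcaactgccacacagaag
LINC00472 (chr6:71420696-71420995, minus strand): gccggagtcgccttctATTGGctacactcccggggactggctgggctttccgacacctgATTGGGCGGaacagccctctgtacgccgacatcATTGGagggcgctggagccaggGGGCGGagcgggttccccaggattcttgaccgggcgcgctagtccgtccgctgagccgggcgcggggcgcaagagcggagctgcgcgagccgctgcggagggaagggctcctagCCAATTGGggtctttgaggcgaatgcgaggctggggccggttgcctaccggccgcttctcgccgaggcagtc

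The motifs were the cAMP response element TGACGTCA, its core TGACG (which lies within it), the AP-1 site TGANTCA, the TEAD site GGAATG, the E-box CACGTG, the CCAAT box CCAAT, the GC box GGGCGG, the ETS site CCGGAAG and the TATA box TATAAA. LINC02381 held an E-box, a GC box and 2 CCAAT boxes. LINC00472 held 5 CCAAT and 2 GC boxes, LINC02361 4 GC boxes and 1 such core, and LINC00842 2 GC boxes. LINC00973, the one with the lowest GC content of the 6 (37.3%, with 1 CG dinucleotide), held an AP-1 site and no GC box. The LINC02475 window consisted largely of a short tandem repeat in which the 10 bases caactgccac occurred 9 times. RefSeq and GENCODE placed the start of LINC02475 161 bases apart and that of LINC02381 52 bases apart, against 33 bases or fewer for the other 4.

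Across the 60 promoters, GC boxes stood in 30 (50%, against 45% of all 35116 promoters) and CCAAT boxes in 27 (45%, against 34.6%). The full cAMP response element stood in 2 member promoters (3.33%, against 1.85% of all). AP-1 sites stood in 5 (8.33%, against 7.71%), TEAD sites in 6 (10.0%, against 14%), E-boxes in 7 (11.7%, against 7.26%), ETS sites in 9 (15.0%, against 10.3%), TATA boxes in 10 (16.7%, against 11.5%) and the core TGACG in 11 (18.3%, against 24.6%). The median GC content was 59.8% in the member promoters and 58.7% in all. These are matches of letters in a window and not measured binding.

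In the cells with the ADRA2A transgene, 24 LINC RNAs rose and 13 fell, and the other 54 did not pass the test. Large changes were few. LINC02381, LINC02532, LINC01559, LINC02361 and LINC02475 rose at least 2-fold, LINC02154 and LINC01694 fell at least 2-fold, and the remaining 30 changed by less. All 91 members passed the filter on low counts. A member is called changed where edgeR's quasi-likelihood test, with 4 libraries in each group and Benjamini-Hochberg adjustment across the 14785 genes tested, gave an adjusted p below 0.05. The share called, 40.7% of members, lay beside 42.7% of all tested genes, and so is not a result about LINC RNAs as a class. By direction, 21.6% of all tested genes were called higher and 21.1% lower. A change of at least 2-fold was called in 7 members (7.69%), against 4.66% of all tested genes. The median summed count was 695 in the members and 3130 in all tested genes. In 4 groups by summed count, lowest to highest, such a change was called in 17.4%, 4.55%, 4.35% and 4.35% of members. The shares were 18.2%, 14.1%, 5.97% and 1.82% in protein-coding genes and 1.37%, 4.05%, 1.74% and 1.16% in other long non-coding genes. These differences were not tested. RNA from fewer cells of a kind and less RNA per cell cannot be told apart in these bulk samples.

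**Figure D1:**
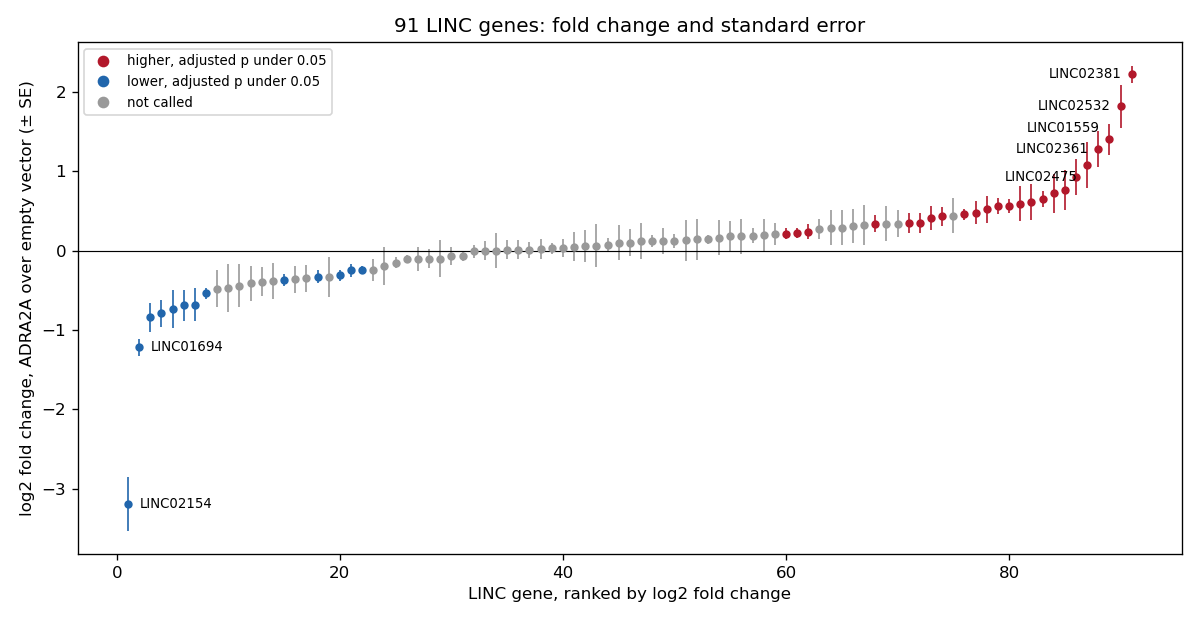
Each point is 1 of the 91 LINC genes, ranked along the x axis by its log2 fold change (ADRA2A over empty vector, y axis), with its standard error as a bar. Red and blue mark the 24 genes called higher and the 13 called lower at an adjusted p-value under 0.05, and the 7 genes with at least a 2-fold change are named.

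The largest rise was that of LINC02381 (ENSG00000250742.3; GRCh38 chromosome 12, 54126019 to 54147485, plus strand), a long non-coding gene at the edge of the HOXC cluster. Its level was 3.86, 3.94, 4.41 and 3.80 CPM in empty-vector replicates 1 to 4, and 16.0, 19.7, 19.4 and 19.5 CPM in ADRA2A replicates 1 to 4. All 4 ADRA2A libraries lay far above all 4 controls, and replicate 1 was the lowest of them. That is a 4.65-fold rise (log2 fold change 2.22 ± 0.11, SE; adjusted p = 2.69e-12, edgeR). Over all alternative settings it lay between 2.19 and 2.28. An unnamed long non-coding gene on the opposite strand (ENSG00000260470) covers 24.0% of its exon bases, and with strand use unknown, how RSEM split the counts of these genes cannot be told.

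The tested genes within 250 kb of LINC02381, a distance chosen after the values were seen, lay on both sides of it. Genes on each side were called higher. Upstream stand the HOXC genes, homeobox transcription factors that set position along the body axis. HOXC6 went from 0.928 to 5.06 CPM (log2 fold change 2.45 ± 0.24, SE; adjusted p = 7.92e-08, edgeR), HOXC5 from 0.378 to 1.89 CPM (2.26 ± 0.40, SE; adjusted p = 0.000123, edgeR) and HOXC4 from 3.55 to 7.35 CPM (1.04 ± 0.17, SE; adjusted p = 4.94e-05, edgeR). Every ADRA2A library lay above every control for each of these 3 HOXC genes. HOXC4, HOXC5 and HOXC6 overlap on the same strand and can share exons, so their own values are uncertain, and HOXC5 rested on 2 to 12 counts in each control library. The nearest tested protein-coding gene to LINC02381, SMUG1, a DNA repair glycosylase gene whose body overlaps it, was at 22.5 CPM in the controls and 23.0 CPM in the ADRA2A cells (log2 fold change 0.03 ± 0.08, SE; adjusted p = 0.796, edgeR). Further downstream, CBX5 (-0.08) and HNRNPA1 (-0.05) were not called, COPZ1 was called at 0.15, and NFE2, a blood-cell transcription factor gene, went from 3.05 to 6.31 CPM (1.05 ± 0.15, SE; adjusted p = 1.15e-05, edgeR). Of the 8 tested genes in that span, 5 were called, beside 42.7% of all tested genes. Of these 5, 4 rose at least 2-fold, namely the 3 overlapping HOXC genes and NFE2. A change of at least 2-fold was called in 4.66% of all tested genes.

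**Figure D2:**
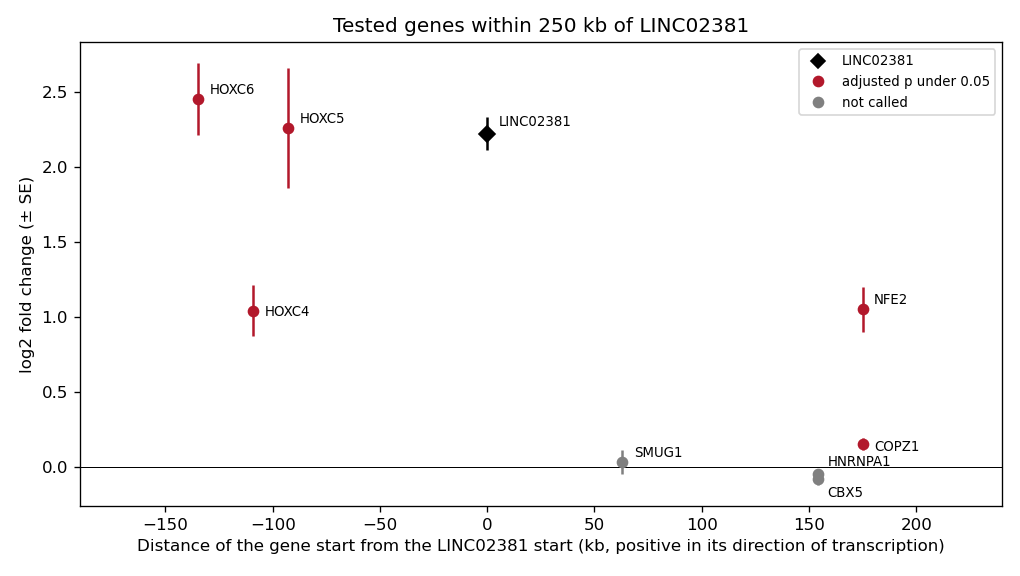
Log2 fold change (y axis, bars show the standard error) of LINC02381 and of the 8 tested genes that start within 250 kb of it, by distance in kb from its start (x axis, positive in its direction of transcription). HOXC6, HOXC5 and HOXC4 lie high on the upstream side. On the other side SMUG1, CBX5 and HNRNPA1 lie near 0, COPZ1 stands at 0.15 and NFE2 at 1.05.

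LINC02532 (ENSG00000235142.9; chromosome 6, 106705328 to 106788148, minus strand) rose from the lowest control level of the members. It had 0.703, 1.15, 0.697 and 0.720 CPM in empty-vector replicates 1 to 4 and 3.25, 2.31, 2.63 and 3.35 CPM in ADRA2A replicates 1 to 4. Control replicate 2 stood above the other 3 controls and still below every ADRA2A library. The rise was 3.53-fold (log2 fold change 1.82 ± 0.27, SE; adjusted p = 1.50e-05, edgeR), on 11 to 17 counts in each control library. The nearest tested coding gene, QRSL1, which encodes a mitochondrial glutamyl-tRNA amidotransferase subunit, had a log2 fold change of -0.03 (adjusted p = 0.757, edgeR). CD24, a surface glycoprotein gene 187 kb away on the other side, went from 704 to 869 CPM (log2 fold change 0.31; adjusted p = 2.7e-06, edgeR).

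LINC01559 (ENSG00000180861.9; chromosome 12, 13371089 to 13387167, minus strand) had 1.46, 1.63, 1.45 and 1.90 CPM in the controls and 4.22, 3.76, 4.64 and 4.36 CPM in the ADRA2A libraries. The groups did not overlap, and the rise was 2.64-fold (log2 fold change 1.40 ± 0.19, SE; adjusted p = 8.38e-06, edgeR). EMP1, an epithelial membrane protein gene 190 kb away and the single tested gene within 250 kb, was lower, from 170 to 144 CPM (log2 fold change -0.23; adjusted p = 7.88e-05, edgeR).

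LINC02361 (ENSG00000256576.2; chromosome 12, 132186735 to 132189728, minus strand), whose promoter carried 4 GC boxes, had 1.23, 1.15, 1.34 and 1.18 CPM in the controls and 2.91, 3.10, 2.46 and 3.48 CPM in the ADRA2A libraries. Its lowest ADRA2A library was above its highest control, and the log2 fold change was 1.28 ± 0.23 (SE; adjusted p = 0.000124, edgeR). GALNT9, a mucin-type O-glycosylation enzyme gene beside it, went from 6.65 to 12 CPM (log2 fold change 0.86; adjusted p = 8.04e-06, edgeR), while NOC4L (-0.09) and DDX51 (0.09), both 45 kb away, were not called.

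LINC02475 (ENSG00000251350.1; chromosome 4, 44016700 to 44022063, plus strand), the gene with the repeat-rich start, had 1.05, 0.882, 1.10 and 1.24 CPM in the controls and 2.77, 2.97, 2.12 and 1.26 CPM in the ADRA2A libraries. The 4 ADRA2A libraries were spread widely, and replicate 4 stood just above the highest control. Its log2 fold change was 1.08 ± 0.29 (SE; adjusted p = 0.00513, edgeR), and it was 0.93 at the lowest over all settings. No other tested gene started within 250 kb of it. The 32 tested coding genes within 5 Mb went the other way, with 5 higher and a median log2 fold change of -0.21.

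LINC02154 (ENSG00000235385.1; chromosome X, 13266041 to 13303452, minus strand) showed the largest fall. Its counts were 48, 57, 50 and 44 in empty-vector replicates 1 to 4 and 1, 6, 7 and 7 in ADRA2A replicates 1 to 4, or 2.81, 3.87, 2.90 and 2.88 CPM against 0.0692, 0.396, 0.401 and 0.443 CPM. Every ADRA2A library was far below every control. The fitted log2 fold change was -3.19 ± 0.34 (SE; adjusted p = 2.27e-07, edgeR), and with so few counts in the ADRA2A libraries its size is less sure than its direction. The nearest tested coding gene was TMSB4X, which encodes the actin-binding peptide thymosin beta 4, at a log2 fold change of -0.08 (adjusted p = 0.0756, edgeR).

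LINC01694 (ENSG00000233922.2; chromosome 21, 45590771 to 45603088, plus strand) was the most precisely measured of the RNAs that fell at least 2-fold. It had 12.5, 11.5, 11.8 and 11.5 CPM in the controls and 4.71, 5.48, 5.38 and 4.62 CPM in the ADRA2A libraries. The groups were tight and well apart, with a log2 fold change of -1.22 ± 0.11 (SE; adjusted p = 1.79e-08, edgeR). SLC19A1, the reduced folate carrier gene 17.4 kb away, had 27.6 CPM in the controls and 25.8 CPM in the ADRA2A cells and was not called (log2 fold change -0.10; adjusted p = 0.262, edgeR). COL18A1, a basement membrane collagen gene 186 kb away, went from 425 to 483 CPM (log2 fold change 0.18; adjusted p = 9.61e-05, edgeR).

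**Figure D3:**
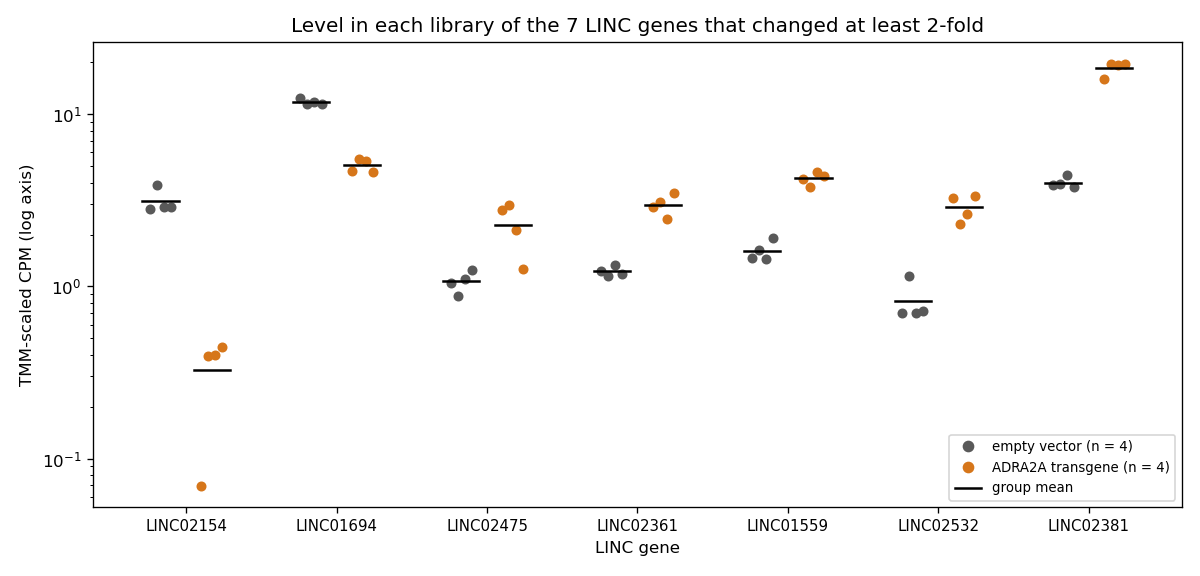
TMM-scaled CPM (y axis, logarithmic) of the 7 LINC genes (x axis) that changed at least 2-fold, with 1 point for each library, grey for the 4 empty-vector and orange for the 4 ADRA2A samples, and a black line at each group mean. The groups do not overlap for any of the 7, and in LINC02475 the lowest ADRA2A library (1.26 CPM) comes close to the highest control (1.24 CPM).

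A second tier of members rose by less than 2-fold. LINC01833, beside the homeobox genes SIX3 and SIX2, rose from 2.03 ± 0.498 to 3.83 ± 0.998 CPM (SD, n = 4 each; log2 fold change 0.93, adjusted p = 0.00312, edgeR), and SIX2, 70253 bases away, rose by 0.38 (adjusted p = 0.0472, edgeR). LINC00342 rose from 14.8 to 19.3 CPM across the controls to 23.6 to 30.9 CPM across the ADRA2A libraries (log2 fold change 0.65, adjusted p = 1.75e-05, edgeR). All 8 of its estimated counts had decimals, which RSEM gives when reads map to several places. LINC02300 had 10.6 to 14.3 CPM in the controls and 18.3 to 20.5 CPM in the ADRA2A libraries, with no overlap (log2 fold change 0.56, adjusted p = 5.24e-05, edgeR).

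Other rises of similar size rested on less. LINC01426 (log2 fold change 0.76, adjusted p = 0.0206, edgeR) lies near RUNX1. Its groups were barely apart, since control replicate 2 and the lowest ADRA2A library both stood at a rounded 2.31 CPM. LINC01597 (0.72, adjusted p = 0.0267, edgeR), LINC00923 (0.61, adjusted p = 0.0346, edgeR) and LINC01504 (0.59, adjusted p = 0.0385, edgeR) had mean levels under 5 CPM in both groups, and for LINC00923 the highest control (3.93 CPM) was above 3 of the 4 ADRA2A libraries. LINC01426 lost its call without empty-vector replicate 1, 3 or 4 or ADRA2A replicate 4, LINC00923 without empty-vector replicate 1, 2 or 3 or ADRA2A replicate 4, and LINC01597 without empty-vector replicate 3 or 4 or ADRA2A replicate 1 or 2. LINC01504 lost it without empty-vector replicate 1, 3 or 4 or ADRA2A replicate 1 or 4, and with the replicate block. The adjusted p-value then reached 0.0674 for LINC01426, 0.0960 for LINC01597, 0.128 for LINC00923 and 0.135 for LINC01504. For LINC00923 the log2 fold change without empty-vector replicate 3 was 0.47, and without ADRA2A replicate 4 it was also 0.47.

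Among the smaller falls, LINC00842 and LINC00973 were the largest. LINC00842 had 4.74, 5.70, 4.24 and 5.30 CPM in the controls and 3.11, 3.23, 2.41 and 2.40 CPM in the ADRA2A libraries, without overlap (log2 fold change -0.84 ± 0.18, SE; adjusted p = 0.000653, edgeR). LINC00973, with the AP-1 match in its promoter, had 4.48 to 5.0 CPM in the controls and 2.28 to 3.25 CPM in the ADRA2A libraries (-0.79 ± 0.17, SE; adjusted p = 0.00100, edgeR). DCBLD2, a membrane receptor gene 79363 bases from LINC00973, also fell, by 0.20 on the log2 scale (adjusted p = 7.16e-06, edgeR). LINC00326 (-0.73, adjusted p = 0.0192, edgeR), LINC02001 (-0.69, adjusted p = 0.00917, edgeR), which GENCODE now lists as the snoRNA host gene SNHG30, and LINC01006 (-0.68, adjusted p = 0.0129, edgeR) followed. LINC02001 is the one of these 3 whose groups overlapped, by a single ADRA2A library at 3.17 CPM above a control at 3.14 CPM. LINC00326 lost its call without empty-vector replicate 1, ADRA2A replicate 1 or ADRA2A replicate 4, where the adjusted p-value reached 0.0655.

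Several well-expressed members fell by small and well-measured amounts. LINC00472, described as less abundant in some breast tumours, went from 32.1 ± 1.95 to 22.1 ± 2.12 CPM (SD, n = 4 each; log2 fold change -0.54 ± 0.07, SE; adjusted p = 5.14e-06, edgeR). LINC00511, an RNA reported as abundant in several carcinomas, had 42.1 to 57.5 CPM in the controls and 37.0 to 40.4 CPM in the ADRA2A libraries (-0.37 ± 0.07, SE; adjusted p = 0.000302, edgeR). LINC00665 (-0.33, adjusted p = 0.00290, edgeR) and LINC00667 (-0.31, adjusted p = 0.00221, edgeR) did not overlap between the groups either. LINC00346, also called PRECSIT, had a log2 fold change of -0.25 (adjusted p = 0.0183, edgeR), and it lost its call without ADRA2A replicate 1 or 3, where the adjusted p-value reached 0.0630.

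LINC00472 also spans the hairpins of MIR30A and MIR30C2 on its own strand (chromosome 6, 71403551 to 71403621 and 71376960 to 71377031). The mature RNAs, from RefSeq (GRCh38.p14), are shown because they lie in a transcript that fell. Capitals mark the seed, bases 2 to 8.
hsa-miR-30a-5p: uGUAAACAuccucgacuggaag
hsa-miR-30c-5p: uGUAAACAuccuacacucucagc
hsa-miR-30a-3p: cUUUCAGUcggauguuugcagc
hsa-miR-30c-2-3p: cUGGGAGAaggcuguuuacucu

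The 5p strands of both share the seed GUAAACA of the miR-30 family, while the 3p strands differ (UUUCAGU and UGGGAGA). The miRNAs themselves were not measured here, and the level of a host transcript does not give the level of its miRNAs. Besides LINC00472 the single member that spanned a miRNA hairpin on its strand was LINC01138 (MIR5087), which was not called (log2 fold change 0.13 ± 0.26, SE; adjusted p = 0.726, edgeR).

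The 3 called members with the most counts, and LINC01578 after them, changed by at most 1.38-fold. The highest, LINC00707, had 85.2 to 88.8 CPM in the controls and 69.4 to 78.8 CPM in the ADRA2A libraries (log2 fold change -0.24 ± 0.05, SE; adjusted p = 0.000319, edgeR). LINC00963, described in prostate cancer, rose from 35.3 ± 2.97 to 48.7 ± 5.02 CPM (SD, n = 4 each; 0.46 ± 0.07, SE; adjusted p = 2.92e-05, edgeR). LINC01578, also called CHASERR, is known to restrain the chromatin remodeller gene CHD2 beside it, and rose from 35.2 to 40.9 CPM (0.22 ± 0.06, SE; adjusted p = 0.00306, edgeR). CHD2 stood at 135 ± 8.63 CPM with the empty vector and 138 ± 8.88 CPM with ADRA2A (SD, n = 4 each; log2 fold change 0.04 ± 0.05, SE; adjusted p = 0.555, edgeR).

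Per kb of annotated exon, which allows levels of different genes to be compared, the order was LINC01145 at a mean of 77.4 CPM per kb over the 8 libraries, LINC00680 at 42.9, LINC02300 at 24.0, LINC00888 at 20 and LINC01123 at 16.9. Single libraries of LINC01145 ran from 54.0 to 107 CPM per kb and those of LINC00680 from 27.9 to 50.4, so these 2 did not overlap. LINC02300 (15.9 to 30.8 CPM per kb) and LINC00888 (16.6 to 23.2 CPM per kb) did overlap. The order depends on the annotation, since GENCODE gives these entries of LINC01145, LINC00680 and LINC00888 only 143, 181 and 421 exon bases, and the authors' release may differ. All exon bases of LINC01145 and LINC00680, and 78.6% of those of LINC00888, also belong to another gene of the same name. LINC01145 had a log2 fold change of 0.35 (adjusted p = 0.0396, edgeR) and its groups overlapped. It was not called with upper quartile factors, nor without empty-vector replicate 3 or 4 or ADRA2A replicate 4 (adjusted p up to 0.170), with a log2 fold change of 0.23 without ADRA2A replicate 4, and all 8 of its counts had decimals. LINC00888 stood at 8.44 ± 1.01 and 8.44 ± 1.03 CPM in the controls and the ADRA2A cells (SD, 4 libraries each), so its log2 fold change was 0.00 with an SE of 0.12.

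**Figure D4:**
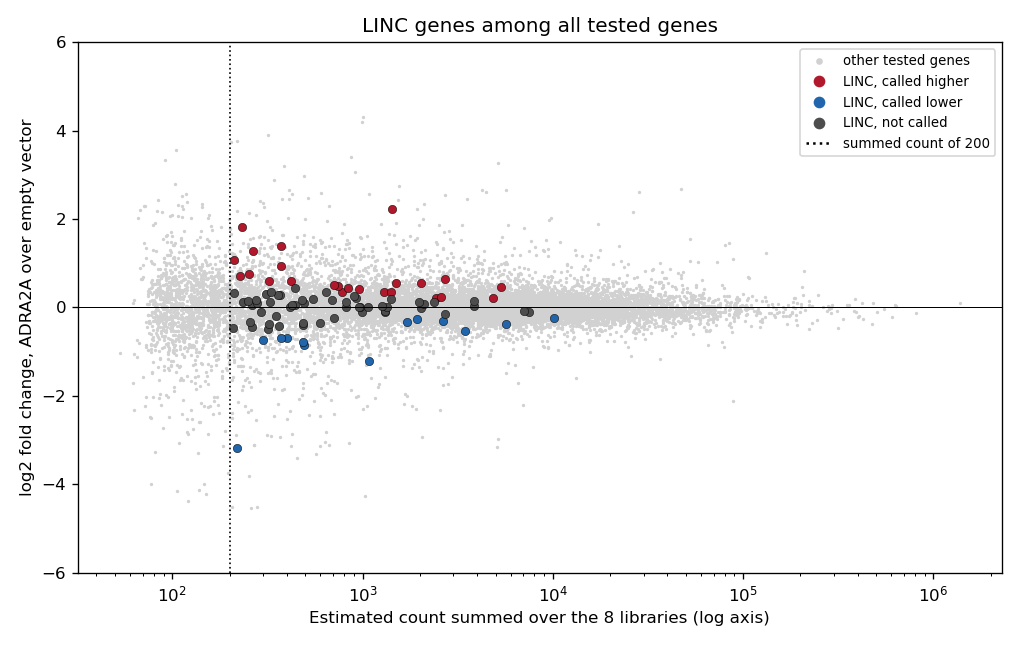
Log2 fold change (y axis) against the estimated count summed over the 8 libraries (x axis, logarithmic) for all tested genes (grey) and for the 91 LINC genes (coloured by call), with a dotted line at the summed count of 200 that defined the members. The y axis covers log2 fold changes up to 6 in either direction, which leaves out 2 other genes, and the LINC genes are spread within the cloud of the other genes.

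The members were mostly scarce RNAs. Their mean level ran from 1.64 to 79.9 CPM with a median of 5.43 CPM, the 22.7th percentile of tested genes, and 62 of the 91 stood under 10 CPM. The 5 most abundant held 29.5% of all member counts. Summed over all members, the level was 932 to 961 CPM in the controls and 936 to 1000 CPM in the ADRA2A libraries, so the groups overlapped. The median coefficient of variation between the 4 libraries was 12.8% in the controls and 12.9% in the ADRA2A cells. The 2 groups were apart in every library for 31 members (34.1%), against 39.2% of all tested genes, and 29 of these 31 were called. The median log2 fold change over the members was 0.10, and 58 were above 0, beside a median of 0.00 over all tested genes.

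For the 54 members that did not pass the test, log2 fold changes ran from -0.48 to 0.44 and standard errors from 0.05 to 0.30. The interval of the estimate ± 1.96 standard errors lay within a 2-fold change either way for 53 of them. The exception was LINC01224, at -0.47 with an interval from -1.05 to 0.11. Its estimate moved to -0.77 without ADRA2A replicate 4 (adjusted p = 0.0572, edgeR) and to -0.29 without ADRA2A replicate 3. The tightest estimates among them were those of LINC00205 (-0.11 ± 0.05, SE; adjusted p = 0.0764, edgeR), LINC01123 (-0.07 ± 0.06, SE; adjusted p = 0.327, edgeR) and LINC02210 (0.14 ± 0.06, SE; adjusted p = 0.0868, edgeR). For LINC00205 the lowest control library (58.3 CPM) and the highest ADRA2A library (58.3 CPM) stood side by side, and with upper quartile factors it was called at -0.13 (adjusted p = 0.0407, edgeR). LINC02210 was called without empty-vector replicate 3, at 0.17 (adjusted p = 0.0451, edgeR).

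The share called was highest among the members with the most counts. Split into 4 groups by summed count, 8 of 23, 7 of 22, 8 of 23 and 14 of 23 members were called, from the lowest to the highest. Protein-coding genes within the same count limits were called in 33.9%, 36.9%, 35.7% and 44.6% of cases, and other long non-coding genes in 13.7%, 20.2%, 27.8% and 46.5%. In the top group the members' share was 60.9%, with a median absolute log2 fold change of 0.24 beside 0.15 for the coding genes and 0.19 for the other long non-coding genes. From the lowest group to the third, that median was 0.38, 0.35 and 0.19 in the members and 0.42, 0.31 and 0.21 in the coding genes. Of the 52 tested LINC genes below the limit of 200 counts, 4 were called higher and 2 lower, with a median standard error of 0.36 beside 0.17 in the members. Among other long non-coding classes, the antisense-named genes had 24 higher and 23 lower of 239, the miRNA host genes 1 higher and 4 lower of 19, and the SNHG snoRNA host genes 0 higher and 10 lower of 18. These class differences were not tested.

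The position of the members relative to coding genes differed. By GENCODE 44, 9 were divergent from a protein-coding gene, with both starts within 2 kb on opposite strands, 17 overlapped a coding gene's body, 45 lay within 50 kb of one and 20 were farther away. Called members numbered 2 of 9, 9 of 17, 14 of 45 and 12 of 20, with median absolute log2 fold changes of 0.15, 0.31, 0.24 and 0.45, and 42.7% of all tested genes were called. The differences between these arrangements were not tested. Of the 20 isolated genes, 9 rose and 3 fell.

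In the 9 divergent pairs the RNA and its coding partner often had different values. LINC01089 and SETD1B, a histone H3 lysine 4 methyltransferase gene, both rose (by edgeR, 0.52 at an adjusted p of 0.0189 and 0.43 at an adjusted p of 1.57e-05), although LINC01089 overlapped between the groups, shares 41.7% of its exon bases with RHOF and 57.9% with an unnamed gene on the opposite strand, and had decimals in all 8 counts. LINC01006 fell by 0.68 on the log2 scale while RNF32, a ring finger gene, was at 0.11 and not called (adjusted p = 0.719, edgeR). Some partners rose while the RNA was not called. SLC12A2, the sodium-potassium-chloride cotransporter gene, rose by 0.23 (adjusted p = 0.000966, edgeR) with LINC01184 at 0.03 ± 0.07 (SE), and ZC3H12A, the regnase-1 gene, rose by 0.25 (adjusted p = 0.00281, edgeR) with LINC01137 at 0.02 ± 0.12 (SE). ANXA11, an annexin gene, rose by 0.18 (adjusted p = 9.7e-05, edgeR) with LINC00857 at -0.15 ± 0.07 (SE; adjusted p = 0.0789, edgeR). The differences within the pairs were not tested.

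Taking the nearest tested coding gene whatever its strand, 56 members had one starting within 100 kb, and 33 of these pairs (58.9%) had the same sign of change. The share was 57.6% (495 of 859) for all other tested long non-coding genes, so that of the members was near this background. Both genes of the pair were called in 9 cases, 7 of them with the same sign, beside 60 of 76 for the other long non-coding genes.

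Stretches of chromosome in which genes shifted together also touched some members. Around each member, the median log2 fold change of tested coding genes within 5 Mb ran from -0.40 to 0.32. For the 7 members that changed at least 2-fold it ran from -0.21 to 0.07, or from -0.34 (LINC02475) to 0.24 (LINC02381) within 1 Mb, and for 24 of the 37 called members it lay within 0.1 of 0. LINC00667 stood at -0.31, and on chromosome 18 around it 0 of 24 coding genes were higher and the median was -0.40. A single tested coding gene lay within 1 Mb of it, ZBTB14, at -0.12 and not called (adjusted p = 0.354, edgeR). LINC00888, at 0.00, had 55 of 61 coding genes higher around it on chromosome 3, with a median of 0.21 (0.13 within 1 Mb). The part of these shifts in the members' values was not tested.

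**Figure D5:**
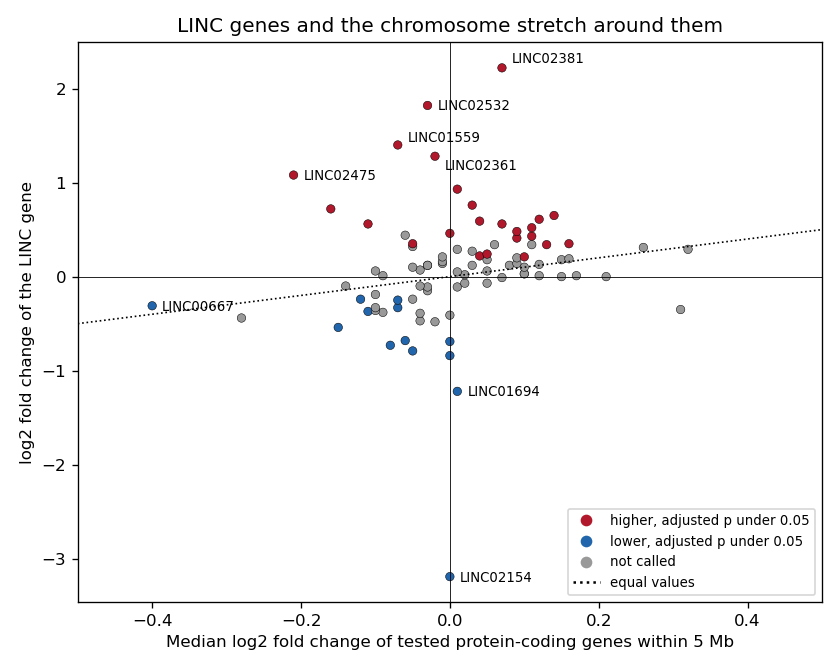
Log2 fold change of each of the 91 LINC genes (y axis) against the median log2 fold change of tested protein-coding genes within 5 Mb (x axis), coloured by call, with a dotted line where both are equal. The 7 named genes with at least a 2-fold change lie where the surrounding median is between -0.21 and 0.07 (-0.34 to 0.24 within 1 Mb, not plotted), and LINC00667 lies close to the line at a median of -0.40.

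A list of 22 LINC symbols described in cancer, written from general knowledge, was set against the table. In it 19 symbols were present, 6 of them at 0 counts in all libraries (LINC00462, LINC00520, LINC00974, LINC01133, LINC01287 and LINC01614), and 7 others had too few counts to be tested. The 5 that were members were LINC02381 and LINC00963, which rose, LINC00511 and LINC00665, which fell, and LINC00857, which was not called. LINC00460, tested but below 200 counts, was at 1.12 CPM in the controls and 0.773 CPM in the ADRA2A cells (log2 fold change -0.54; adjusted p = 0.225, edgeR). The 7 that were not tested had mean levels of at most 1.06 CPM in either group. The other 3 symbols, LINC00152, LINC00657 and LINC00673, were absent, which does not show that their genes were absent. LINC00152 has the later symbol CYTOR, which the symbol rule leaves out.

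By the Ensembl identifiers in the table, GENCODE 44 lists 84 members as long non-coding RNAs, 5 as transcribed pseudogenes and 2 as protein-coding, and it gives 11 members another name. For 4 of the 5 pseudogene entries (LINC01145, LINC00680, LINC00888 and LINC00869) GENCODE also holds a long non-coding gene of the same name on the same strand, which covers at least 78.6% of the entry's exon bases. The protein-coding ones are LINC00843, now TIMM23B-AGAP6, which shares 63.0% of its exon bases with AGAP6, and LINC00672, now LASP1NB, and neither was called (log2 fold changes 0.16 and 0.18). At least 1 exon base was shared with another annotated gene in 53 members, of which 25 (47.2%) were called, and 12 of the other 38 (31.6%) were called, beside 42.7% of all tested genes. Of the 25 members with decimals in any estimated count, 9 (36.0%) were called, and of the 66 with whole counts in every library, 28 (42.4%) were. Neither of these differences was tested.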

How the data were processed

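Per the labels' protocols, RNA of 8 CFPAC-1 samples was isolated with TRIzol and read on a NextSeq instrument. The authors deposited estimated counts per gene (expected counts of RSEM), not scaled between samples; per the submitters' processing notes the tools were cutadapt, STAR, RSEM and DESeq2 with the build hg38, and versions, annotation release and use of strand were not given in the sources used here. All 8 value columns were matched to samples by the name in the title. Counts were rounded, filtered with filterByExpr and scaled by TMM in edgeR 4.0.16 (R 4.3.3, limma 3.58.1), and tested with glmQLFit and glmQLFTest with group as the single term. The standard error is the absolute log2 fold change divided by the square root of F. CPM values are TMM-scaled. The test was checked on simulated counts with a single fixed spread, in which the changed genes differed by at least 2-fold. That check does not show how well smaller changes are found.

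Positions came from GENCODE 44 on GRCh38, in which 58517 of 58870 genes (99.4%) matched by Ensembl identifier without version. Of the 91 members 20 had the same version in both. Library totals of 14427040 to 17528910 limit precision for scarce RNAs.

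The named members, by rule, were up to 12 called higher and 12 called lower with the largest change, the 5 highest per kb, the 3 tightest not called and those at the count limit. Further genes, such as those within 250 kb and LINC00707, were picked with their values in view. The members and lists were chosen with earlier results of these data known. Alternatives were DESeq2 1.42.0, RLE and upper quartile factors, voom, 2 other filters, the replicate block, other count limits and leaving out each library.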

Additional observations from a re-analysis of the deposited data

Results flagged for a closer look

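Among the 32 LINC genes named by rule, each group of 4 libraries (64 groups) was examined for 1 library far from the other 3, measured as its gap to the nearest library over the whole range. Chance marks about 1 in 20 groups, and 9 were marked, 3 each from empty-vector replicate 2, ADRA2A replicate 1 and ADRA2A replicate 4. Empty-vector replicate 2 (14820262 counts) and ADRA2A replicate 1 (14427040 counts) were the smallest libraries, and the part of depth in these values was not tested.

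In empty-vector replicate 2, LINC02154 stood at 3.87 CPM above 2.81 to 2.90 CPM, LINC02532 at 1.15 CPM above 0.697 to 0.720 CPM, and LINC01426 at 2.31 CPM above 1.16 to 1.31 CPM. In ADRA2A replicate 1, LINC02154 stood at 0.0692 CPM below 0.396 to 0.443 CPM, a difference of 1 count against 6 to 7. LINC02381 stood in the same library at 16.0 CPM below 19.4 to 19.7 CPM, and LINC02300 at 20.5 CPM above 18.3 to 18.7 CPM. In ADRA2A replicate 4, LINC01145 stood at 15.2 CPM above 11.2 to 11.6 CPM, LINC00923 at 5.12 CPM above 3.49 to 3.74 CPM, and LINC01426 at 2.97 CPM above 2.31 to 2.42 CPM. LINC02154, LINC02381, LINC02532 and LINC02300 were called without each of these libraries, whereas LINC01145, LINC00923 and LINC01426 were not called without ADRA2A replicate 4.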

How the results depend on the processing

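The 37 called members became 35 with DESeq2, 35 with the replicate block, 36 with no filter and 37 with RLE factors, upper quartile factors or voom, and 26 of 61 under the filter at a mean of 50 counts; no shared call changed direction in any of these fits or in those that left out a library. Leaving out 1 library gave 28 to 37 called members of 91, beside 38.1% to 40.4% of all genes tested in those fits. The share of all tested genes called was 42.7% in the main fit, 39.4% with DESeq2, 43.3% with the replicate block and 26.2% with no filter. It was 42.7% to 43.1% with RLE factors, voom or upper quartile factors, and 47.3% at a mean of 50 counts. How the members stood beside all tested genes thus depended on the setting. The calls with at least 2-fold numbered 7, and 2 both under the filter at a mean of 50 counts and with a count limit of 400, since the others have lower counts; with a limit of 100 they were 10 among 124 genes. They were 6 with voom and 7 or 8 without single libraries (8 without empty-vector replicate 2 or 4). Counting only members with no shared exon left 12 of 38 called, a set chosen after seeing the data. Same-sign pairs within 20 kb were 14 of 24, since fewer members have so near a neighbour. Same-numbered samples shared only a number (correlations of deviations -0.02, -0.04, 0.07 and -0.02), so the replicate block is no paired test; it called 35 members.

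Of the 25 called among the 32 named members, 18 kept their call under every setting run on them, and 0 changed sign. Sign changes occurred in uncalled members near 0: LINC00680 ran from -0.21 (without ADRA2A replicate 2) to 0.03 (without ADRA2A replicate 1), and LINC00888 was 0.00 with voom and with no filter and ran from -0.08 to 0.07 without single libraries (-0.08 without empty-vector replicate 1, 0.04 without empty-vector replicate 2 or 4, 0.01 without empty-vector replicate 3 or ADRA2A replicate 1, 0.07 without ADRA2A replicate 3). The median of coding genes around a member moved in 21 of 30 comparisons when 1 Mb replaced 5 Mb. Moved here means a shift of at least the SD of that median between the control libraries, which can be small. Shifts from -0.11 to -0.12 (LINC00511) and from -0.40 to -0.12 (LINC00667) both counted. Depth limits the scarce members: LINC02154 rests on 1 to 7 counts in each ADRA2A library.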
